A study of Homo sapiens with 51 samples.

Results

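The genes described here take part in interferon signalling. They are the receptor chains IFNAR1 and IFNAR2, the kinases JAK1 and TYK2, the transcription factors STAT2 and IRF9, and the interferon regulatory factors IRF1, IRF3 and IRF7. These 9 genes were taken by name from a deposited expression table of 24033 genes and followed across 51 RNA sequencing libraries in 17 groups of 3. HMLE-TWIST1 cells, labelled as overexpressing TWIST1, were set beside HMLE cells, labelled wild type. HMLE is a line of immortalised human mammary epithelial cells, and TWIST1 is a transcription factor that drives epithelial to mesenchymal transition. The promoter behind the added TWIST1 and the number of clones are not given in the sources used here.

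In both lines, SUV39H1 and SUV39H2 were knocked down with DsiRNA duplexes, or a scrambled duplex was given, for 48 h, and cells were taken then (day 2) or after 48 h more in fresh medium (day 4). HMLE-TWIST1 cells alone received chaetocin, a fungal compound used to inhibit these methyltransferases of histone H3 lysine 9. It was given at 100, 150, 200 and 500 nM for 48 h (day 2), or at 80 nM for 15 h and then washed out for 48 h (day 4). DMSO was given to both lines on the 2 schedules. Whether replicates came from separate cultures is not stated, so each p-value measures only the spread between these libraries.

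Type I interferons bind a receptor made of IFNAR1 and IFNAR2. TYK2 sits on IFNAR1 and JAK1 on IFNAR2, and the kinases phosphorylate STAT proteins, STAT2 among them. STAT2 and IRF9 act in the complex ISGF3, which binds interferon-stimulated response elements in the promoters of antiviral genes. IRF3 is made at rest and is switched on by phosphorylation after sensors detect foreign or misplaced nucleic acid. IRF7 is itself an interferon-induced gene and amplifies interferon production, and IRF1 is induced by interferon gamma and inflammatory signals and drives antigen presentation genes. RNA levels say nothing about phosphorylation, on which the activity of the kinases, STAT2 and IRF3 depends.

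RefSeq promoters matched 6 of the 9 genes. Those of IRF1, IRF9 and STAT2 are shown because these 3 genes rose together in every knockdown, whereas with chaetocin IRF1 rose, STAT2 fell and IRF9 did not pass. Each runs 5′ to 3′ from 250 bases before to 50 bases after the annotated start (GRCh38.p14). Capitals mark letters that match a gamma-activated site (GAS, TTCNNNGAA), a pair of IRF contact sites (GAANNGAAA) or an NF-kB site. IRF1 lies at chr5:132490724-132491023 on the minus strand, IRF9 at chr14:24161015-24161314 on the plus strand, and STAT2 at chr12:56360058-56360357 on the minus strand.
IRF1: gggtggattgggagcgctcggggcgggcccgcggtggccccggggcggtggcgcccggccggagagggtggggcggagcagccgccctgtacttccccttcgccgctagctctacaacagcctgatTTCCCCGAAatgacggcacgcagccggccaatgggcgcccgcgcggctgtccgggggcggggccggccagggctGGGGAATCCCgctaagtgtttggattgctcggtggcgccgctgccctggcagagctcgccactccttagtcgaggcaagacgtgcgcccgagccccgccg
IRF9: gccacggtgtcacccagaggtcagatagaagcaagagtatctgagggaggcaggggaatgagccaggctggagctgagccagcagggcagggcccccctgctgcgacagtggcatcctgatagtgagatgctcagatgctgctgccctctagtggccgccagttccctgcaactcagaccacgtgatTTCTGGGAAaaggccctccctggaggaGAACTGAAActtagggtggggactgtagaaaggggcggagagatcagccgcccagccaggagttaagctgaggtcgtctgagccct
STAT2: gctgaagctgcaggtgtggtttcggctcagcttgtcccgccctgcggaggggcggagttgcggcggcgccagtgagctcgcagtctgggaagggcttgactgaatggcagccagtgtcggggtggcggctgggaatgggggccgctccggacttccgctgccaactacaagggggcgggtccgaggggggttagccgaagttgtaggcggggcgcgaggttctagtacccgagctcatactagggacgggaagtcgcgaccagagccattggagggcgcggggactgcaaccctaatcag

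The capitals in IRF1 are TTCCCCGAA, a match to GAS 124 bases before the start, and GGGGAATCCC, a match to NF-kB 50 bases before it. The capitals in IRF9 are TTCTGGGAA, a match to GAS 63 bases before the start, and GAACTGAAA, a match to the IRF pair 36 bases before it. The STAT2 window held no match to the 4 motifs searched on both strands, and the full response element core (GAAA, then NN, then GAAA) matched none of the 3 windows. Of 35116 promoters of the same length, 7.66% held a GAS match, 7.66% the IRF pair, 3.57% the full core and 11.3% an NF-kB match. The full core and the IRF pair differ in length, so a match to the full core need not contain the IRF pair. A match describes letters only, and its absence here says nothing of the factor.

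Depth ranged over 7897060 to 15662385 counted reads a library, of which the most abundant gene held 2.41 to 11.6%. SUV39H1 was lower in all 4 knockdowns, by log2 fold changes of -1.40 and -1.03 in HMLE-TWIST1 cells and -1.28 and -0.90 in HMLE cells at days 2 and 4. SUV39H2 had -1.21 and -0.81 in HMLE-TWIST1 cells and -0.39 and -0.50 in HMLE cells, and all 8 values passed. TWIST1 group means were 115 to 298.9 RPKM in HMLE-TWIST1 cells and 2.50 to 6.88 RPKM in HMLE cells. Summed levels of 6 epithelial markers were 0.909 to 8.46 CPM (reads scaled to library depth) in HMLE-TWIST1 libraries, against 4955 to 11990 in HMLE libraries. Among 8 leukocyte markers CD3E and LYZ were at 0, and the list summed to 1.99 to 19.7 CPM in HMLE-TWIST1 libraries and 1.80 to 6.57 CPM in HMLE libraries.

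Levels are given as RPKM, reads scaled to gene length and library depth, so that genes can be compared. By group mean JAK1 was the most abundant member in 15 of the 17 groups. Its means ran from 35.7 RPKM in HMLE DMSO cells at day 2 to 68.0 RPKM in HMLE scramble cells at day 4. In HMLE-TWIST1 knockdown cells at day 4 STAT2 led, but its libraries (46.9 to 51.5 RPKM) overlapped those of IRF7 (47.2 to 47.9 RPKM). In HMLE knockdown cells at day 4 IRF7 led, but its libraries (55.4 to 58.95 RPKM) overlapped those of JAK1 (54.2 to 58.7 RPKM). IRF9 was the least abundant in every group, at 0.178 to 1.95 RPKM and only 5 to 92 reads a library. In HMLE-TWIST1 DMSO cells at day 2 the order was JAK1 (46.5 RPKM), IFNAR1 (14.7), STAT2 (13.1), TYK2 (7.16), IFNAR2 (4.12), IRF3 (2.98), IRF1 (2.16), IRF7 (1.94) and IRF9 (0.248). The libraries of IRF1 (1.93 to 2.29 RPKM) and IRF7 (1.59 to 2.13 RPKM) overlapped there, and no other neighbours in that order did.

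Group means ranged least for IFNAR1, 11.7 to 15.7 RPKM, and by factors of 1.78 for TYK2, 1.85 for IRF3, 1.88 for IFNAR2 and 1.90 for JAK1. They ranged by factors of 7.83 for STAT2, 10.5 for IRF1, 10.96 for IRF9 and 32.4 for IRF7. IRF7 was lowest in HMLE-TWIST1 scramble cells at day 2 (1.77 RPKM) and highest in HMLE knockdown cells at day 4 (57.2 RPKM). In GENCODE v29, a neighbouring gene on the same strand covers 48.4% of the exon bases of IRF9 (AL136295.5) and 44.2% of those of IFNAR2 (AP000295.1). The counting mode for such reads is not given in the sources used here, so the levels of these 2 genes are uncertain.

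**Figure D1:**
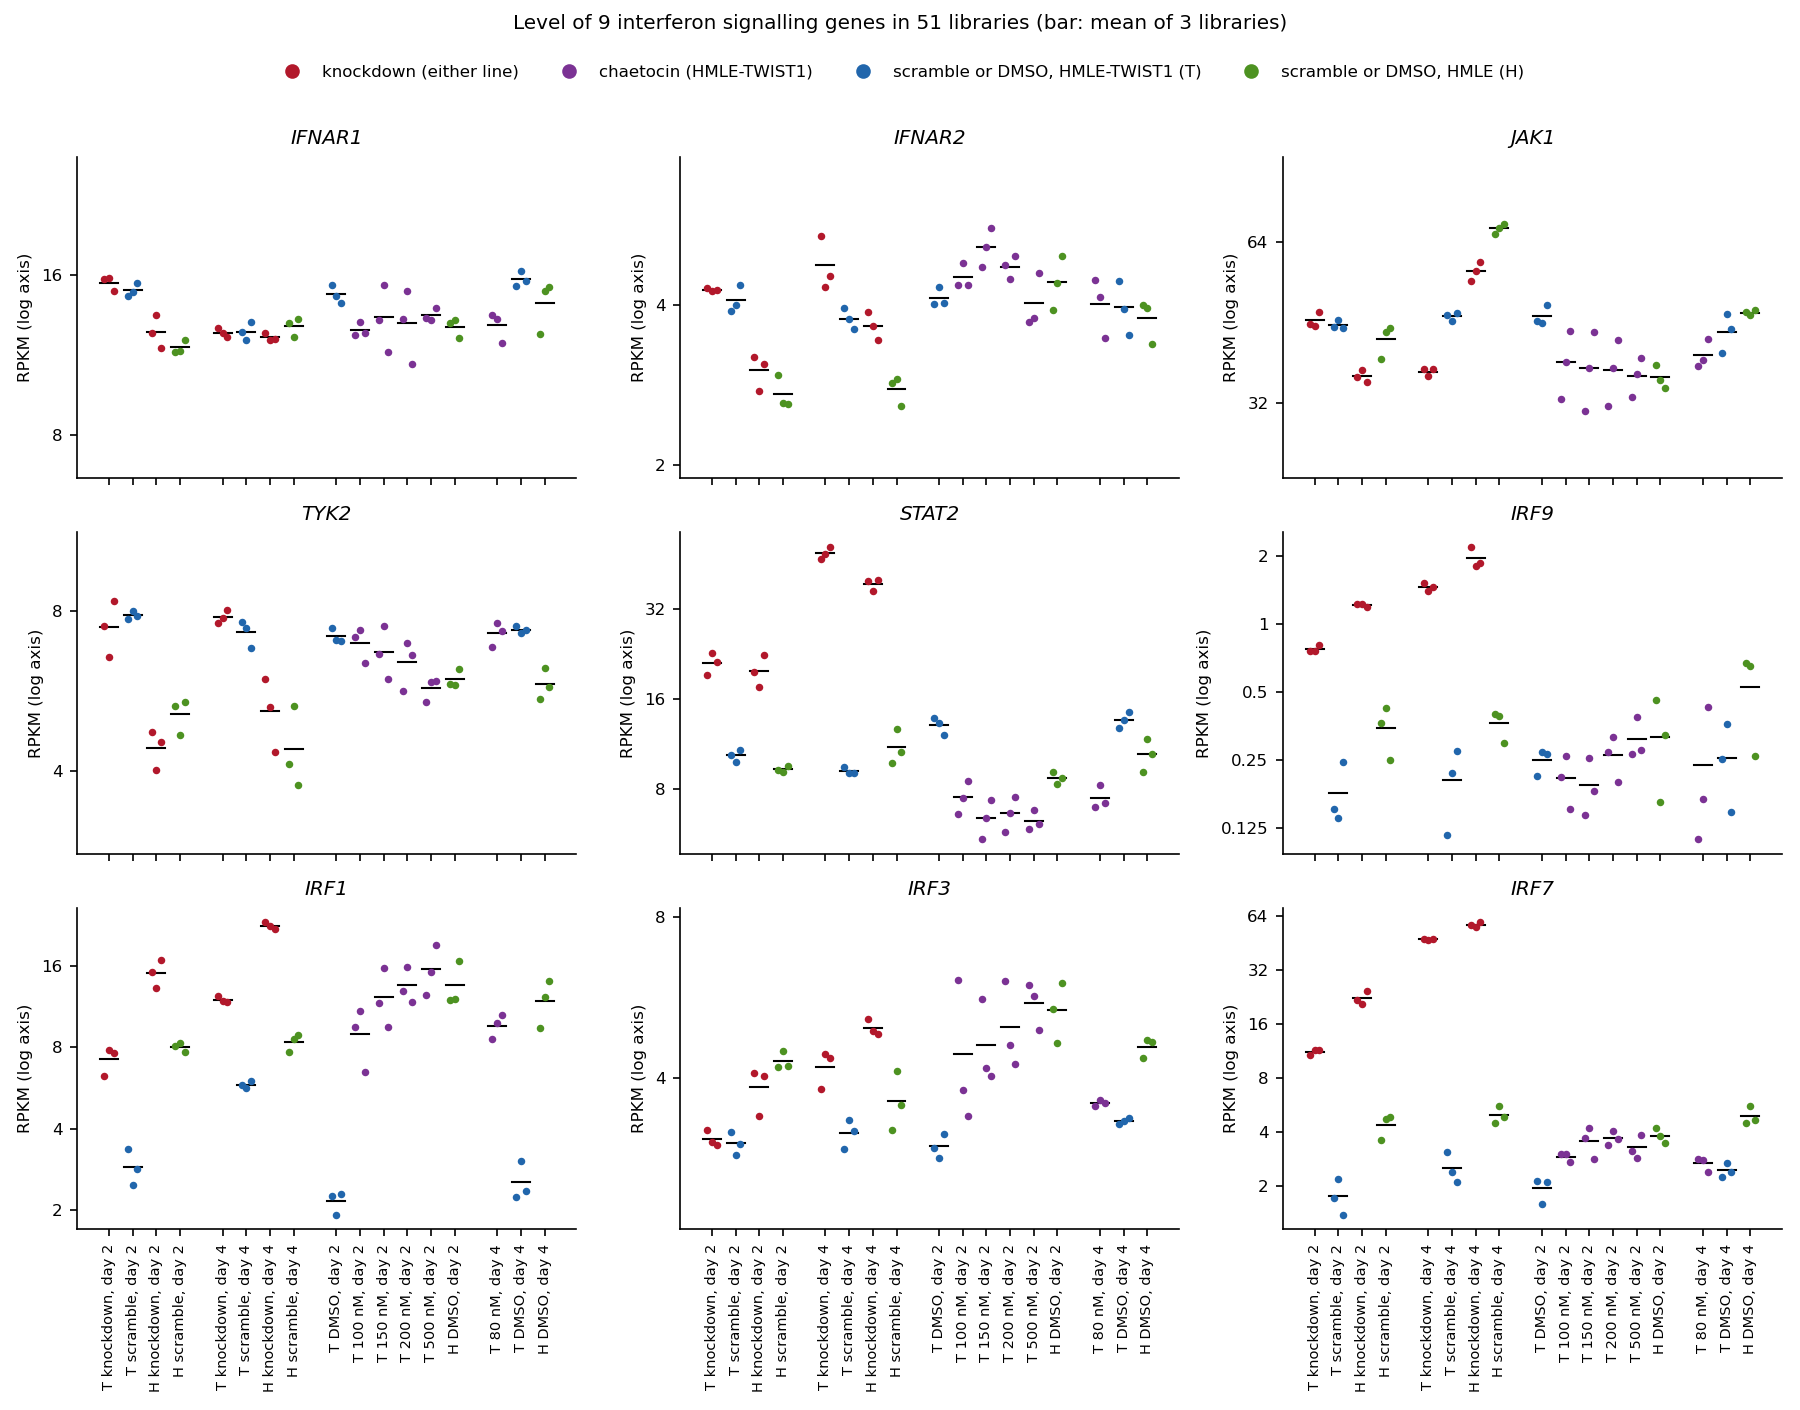
Each point is 1 library and each bar a group mean, in RPKM on a log axis, for 9 genes in 17 groups (T is HMLE-TWIST1, H is HMLE). STAT2, IRF9, IRF1 and IRF7 stand above their scramble libraries in all 4 knockdown groups, while group means of the receptor chains, JAK1 and TYK2 range by a factor of at most 1.90.

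After knockdown of SUV39H1 and SUV39H2, STAT2, IRF9, IRF1 and IRF7 were higher than after scramble in both lines and on both days. IFNAR2 and IRF3 were slightly higher at day 4. JAK1 was slightly lower in 3 of the 4 comparisons, and IFNAR1 and TYK2 passed in none. In HMLE-TWIST1 cells 4 of 9 members passed at day 2, all higher, where 15.8% of all genes tested passed, and 7 passed at day 4 (6 higher, 1 lower), where 38.0% of all genes did. In HMLE cells 5 passed at day 2 (4 higher, 1 lower), where 28.7% of all genes passed, and 7 at day 4 (6 higher, 1 lower), where 26.1% did. A gene passed at a Benjamini-Hochberg adjusted p under 0.05 over all genes tested, from limma on log2 CPM with n = 3 libraries per group. In bulk RNA, more cells with a gene switched on and more RNA per cell cannot be told apart. Effects of the duplexes themselves and of the loss of their targets also cannot be told apart in these comparisons.

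STAT2, the subunit of ISGF3 that carries its activation domain, had 46.9, 48.9 and 51.5 RPKM in HMLE-TWIST1 knockdown cells at day 4, against 9.44, 9.05 and 9.06 RPKM in scramble cells. At day 2 it had 19.3, 22.8 and 21.3 RPKM in HMLE-TWIST1 knockdown cells, against 10.4, 9.88 and 10.8 RPKM in scramble cells. The lowest knockdown library stood above the highest scramble library on both days. The log2 fold changes were 2.40 (SE 0.08, adjusted p = 4.5e-14) at day 4 and 1.02 (SE 0.07, adjusted p = 3.5e-08) at day 2. In HMLE cells STAT2 had 39.5, 36.7 and 39.8 RPKM at day 4 and 19.7, 17.5 and 22.4 RPKM at day 2 after knockdown, against 9.79, 12.7 and 10.6 RPKM and 9.22, 9.13 and 9.53 RPKM after scramble. Again the groups did not overlap, with log2 fold changes of 1.80 (SE 0.08, adjusted p = 4.4e-12) and 1.12 (SE 0.07, adjusted p = 8.6e-09).

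IRF9, which gives ISGF3 its DNA contact, had 73, 78 and 74 reads in HMLE-TWIST1 knockdown libraries at day 4, against 6, 11 and 14 reads in scramble libraries. In RPKM these were 1.46 ± 0.0607 and 0.203 ± 0.0799 (SD, n = 3 each). The groups were far apart although the scramble level rests on few reads, and the log2 fold change was 2.65 (SE 0.24, adjusted p = 1.0e-07). At day 2 IRF9 had 46, 31 and 34 reads in HMLE-TWIST1 knockdown libraries, against 9, 7 and 13 in scramble libraries (log2 fold change 1.92, SE 0.24, adjusted p = 1.7e-05). In HMLE cells it had 92, 73 and 74 reads against 16, 17 and 10 at day 4, and 65, 60 and 52 reads against 15, 20 and 11 at day 2. No knockdown library overlapped its scramble group, and the log2 fold changes were 2.29 (SE 0.24, adjusted p = 1.2e-06) and 1.75 (SE 0.24, adjusted p = 2.7e-05).

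IRF7 moved most. In HMLE-TWIST1 cells it had 47.9, 47.2 and 47.7 RPKM after knockdown at day 4, against 3.08, 2.38 and 2.12 RPKM after scramble. At day 2 it had 10.7, 11.5 and 11.4 RPKM after knockdown, against 1.73, 2.19 and 1.39 RPKM after scramble. The groups lay far apart on both days, with log2 fold changes of 4.21 (SE 0.11, adjusted p = 2.8e-15) and 2.64 (SE 0.14, adjusted p = 5.2e-10). In HMLE cells IRF7 had 57.4, 55.4 and 59.0 RPKM at day 4 and 21.9, 20.8 and 24.4 RPKM at day 2 after knockdown, against 4.51, 5.61 and 4.87 RPKM and 3.62, 4.72 and 4.87 RPKM after scramble. The log2 fold changes there were 3.49 (SE 0.11, adjusted p = 4.9e-14) and 2.37 (SE 0.14, adjusted p = 1.9e-09). At day 4 after knockdown IRF7 stood above JAK1 in HMLE-TWIST1 cells, at 47.6 against 36.6 RPKM.

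IRF1 rose less. In HMLE-TWIST1 cells it had 12.4, 11.9 and 11.7 RPKM after knockdown at day 4, against 5.79, 5.66 and 6.002 RPKM after scramble, and 6.29, 7.81 and 7.62 RPKM at day 2, against 3.38, 2.48 and 2.85 RPKM. The groups did not overlap, with log2 fold changes of 1.03 (SE 0.06, adjusted p = 5.6e-10) and 1.31 (SE 0.11, adjusted p = 1.3e-06). In HMLE cells it had 23.2, 22.5 and 22.0 RPKM after knockdown at day 4, against 7.68, 8.60 and 8.88 RPKM after scramble, and 15.2, 13.3 and 16.8 RPKM at day 2, against 8.09, 8.29 and 7.67 RPKM. These groups were also apart, with log2 fold changes of 1.41 (SE 0.06, adjusted p = 1.1e-11) and 0.94 (SE 0.11, adjusted p = 2.0e-05).

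IRF3, the factor present before any interferon signal, had 3.81, 4.43 and 4.36 RPKM in HMLE-TWIST1 knockdown cells at day 4, against 2.95, 3.34 and 3.19 RPKM in scramble cells (log2 fold change 0.39, SE 0.11, adjusted p = 0.0094). In HMLE cells at day 4 it had 5.16, 4.91 and 4.83 RPKM, against 3.20, 4.11 and 3.55 RPKM (0.44, SE 0.11, adjusted p = 0.0059). The groups did not overlap at day 4 in either line. At day 2 the log2 fold changes were 0.02 in HMLE-TWIST1 cells and -0.14 in HMLE cells, with adjusted p of 0.948 and 0.336.

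The receptor chains and kinases differed little. IFNAR2, the signalling chain, had 5.39, 4.32 and 4.54 RPKM in HMLE-TWIST1 knockdown cells at day 4, against 3.94, 3.76 and 3.60 RPKM in scramble cells, and its log2 fold change was 0.31 (SE 0.10, adjusted p = 0.024). Without replicate 1 of that knockdown group it did not pass (0.26, adjusted p = 0.0748). In HMLE cells the log2 fold change at day 4 was 0.37 (SE 0.10, adjusted p = 0.012), and without replicate 3 of the scramble group it was 0.32 (adjusted p = 0.0514).

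JAK1 had 37.0, 35.9 and 37.0 RPKM in HMLE-TWIST1 knockdown cells at day 4, against 46.7, 45.5 and 47.2 RPKM in scramble cells. That was a fall of 0.36 on the log2 scale (SE 0.05, adjusted p = 7.4e-06), and the groups did not overlap. In HMLE cells JAK1 fell by 0.28 at day 4 (SE 0.05, adjusted p = 0.00018) and by 0.20 at day 2 (SE 0.05, adjusted p = 0.0066), the second of these not passing in a fit of all 51 libraries (adjusted p = 0.077). At day 2 in HMLE-TWIST1 cells it had a log2 fold change of 0.02 (adjusted p = 0.861). IFNAR1, the chain that holds TYK2, had log2 fold changes of -0.08 to 0.13 over the 4 knockdowns, and TYK2 of -0.18 to 0.23. TYK2 passed in HMLE cells at day 2 without replicate 2 of the day 2 scramble group (-0.28, adjusted p = 0.0426). At day 4 it passed without replicate 2 of the day 4 scramble group (0.37, adjusted p = 0.0174) or replicate 3 of the day 4 knockdown group (0.35, adjusted p = 0.0352). The directions were opposite on the 2 days.

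**Figure D2:**
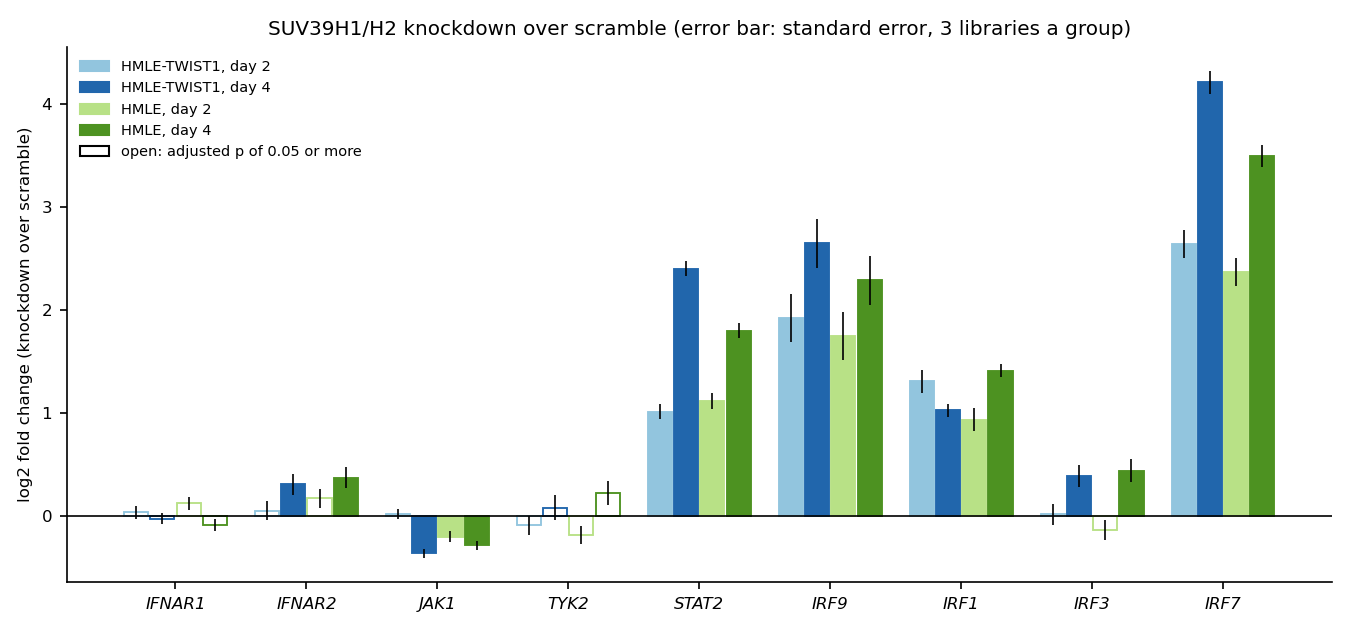
Bars show the log2 fold change of knockdown over scramble for 9 genes in each line and on each day, with the standard error from limma (3 libraries a group), and open bars did not pass. IRF7, IRF9, STAT2 and IRF1 have filled bars above 0 in all 4 comparisons, and JAK1 has 3 filled bars below 0.

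The knockdown effect differed between the lines at day 4 for 3 of 9 members, where 22.9% of all genes tested passed. The effect in HMLE-TWIST1 cells was larger for STAT2 by 0.60 (SE 0.11, adjusted p = 0.00058) and for IRF7 by 0.71 (SE 0.15, adjusted p = 0.0028), and smaller for IRF1, at -0.39 (SE 0.09, adjusted p = 0.0044). In a fit of all 51 libraries IRF1 did not pass (adjusted p = 0.324). At day 2 the limma test called 0 of 9 members, where 12.2% of all genes passed, and 2 members had an unadjusted p under 0.05. JAK1 came nearest at day 2, with a difference of 0.22 (SE 0.07, adjusted p = 0.0554). It passed under median-of-ratios scaling (adjusted p = 0.0311), with no filter (0.0368) and with precision weights (0.0482). It also passed without HMLE scramble replicate 1 (0.0154), HMLE knockdown replicate 2 (0.0378), or HMLE-TWIST1 knockdown replicate 1 (0.0492) or 2 (0.0322), while IRF1 (0.37, adjusted p = 0.141) passed without replicate 1 of HMLE-TWIST1 scramble (0.53, adjusted p = 0.0255) or knockdown (0.51, adjusted p = 0.0423).

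The effect was larger at day 4 than at day 2 for STAT2 and IRF7 in both lines. In HMLE-TWIST1 cells the difference was 1.396 for STAT2 (SE 0.11, adjusted p = 1.2e-10) and 1.58 for IRF7 (SE 0.18, adjusted p = 2.4e-07), and JAK1 had -0.37 (SE 0.06, adjusted p = 9.0e-05). These were 3 of 9 members, where 20.0% of all genes tested passed. In HMLE cells 4 of 9 members passed, where 17.6% of all genes did: STAT2 at 0.67 (SE 0.11, adjusted p = 6.4e-05), IRF7 at 1.12 (SE 0.18, adjusted p = 8.0e-05), IRF3 at 0.57 (SE 0.14, adjusted p = 0.0057) and IRF1 at 0.47 (SE 0.13, adjusted p = 0.012). IRF9 had 0.75 in HMLE-TWIST1 cells (SE 0.33, adjusted p = 0.121) and 0.53 in HMLE cells (SE 0.33, adjusted p = 0.303). In HMLE-TWIST1 cells it passed without replicate 3 of scramble at day 4 (0.97, adjusted p = 0.0449).

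Some of these differences turned on 1 library or on the fit. Over all 51 libraries IRF1 in HMLE cells (adjusted p = 0.196) and JAK1 in HMLE-TWIST1 cells (0.0536) did not pass. In HMLE-TWIST1 cells IRF1 passed as smaller at day 4 without day 2 replicate 1 of scramble (-0.39, adjusted p = 0.0228) or knockdown (-0.36, adjusted p = 0.0498), and IRF3 passed without day 4 knockdown replicate 1 (0.45, adjusted p = 0.0319) and on the deposited log2 RPKM (0.38, adjusted p = 0.0452). In HMLE cells TYK2 passed without day 4 scramble replicate 2 (0.54, adjusted p = 0.0091) or knockdown replicate 3 (0.53, adjusted p = 0.0129). IFNAR1 passed there without day 4 scramble replicate 2 (-0.25, adjusted p = 0.0314) or day 2 knockdown replicate 3 (-0.28, adjusted p = 0.0126).

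The scramble cells themselves differed between the days. In HMLE-TWIST1 scramble cells IRF1 was higher at day 4, at 5.79, 5.66 and 6.002 RPKM against 3.38, 2.48 and 2.85 RPKM at day 2, and the log2 fold change was 1.00 (SE 0.09, adjusted p = 1.9e-09). IRF7 was higher by 0.50 (SE 0.13, adjusted p = 0.0037), although its libraries overlapped (2.12 to 3.08 RPKM at day 4 and 1.39 to 2.19 RPKM at day 2), and IFNAR1 was lower at -0.26 (SE 0.06, adjusted p = 0.00078). These were 3 of 9 members, where 29.1% of all genes tested passed. In HMLE scramble cells JAK1 was higher at day 4, at 66.4, 68.2 and 69.3 RPKM against 38.6, 43.5 and 44.2 RPKM at day 2 (0.69, SE 0.05, adjusted p = 1.1e-12). STAT2 (0.24, adjusted p = 0.014) and IRF3 (-0.26, adjusted p = 0.0422) also passed there, 3 of 9 members in all, where 42.3% of all genes did. STAT2 did not pass without replicate 2 of either day (adjusted p = 0.0541 and 0.17), and IRF3 did not pass without any library but replicate 2 of day 4 (adjusted p 0.0575 to 0.226). Neither passed over all 51 libraries (0.0815 and 0.167), and IRF3 did not pass with the replicate block (0.0518), precision weights (0.0545) or median-of-ratios scaling (0.0589). TYK2 passed without replicate 2 of day 2 (-0.31, adjusted p = 0.0483) or day 4 (-0.38, adjusted p = 0.0067). IFNAR1 passed without replicate 2 of day 4 (0.16, adjusted p = 0.0387) and under median-of-ratios scaling (0.15, adjusted p = 0.0356).

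Other genes of the pathway also rose after knockdown. Of 43 genes listed as ISGF3 targets, 42 rose in HMLE-TWIST1 cells at day 2 and 43 at day 4, with median log2 fold changes of 2.34 and 4.32. In HMLE cells 42 rose on each day, with medians of 2.58 and 3.67. CMPK2, a mitochondrial nucleotide kinase named after its values were seen, was at 0 CPM in all HMLE libraries compared, and averaged 123 CPM in HMLE-TWIST1 knockdown cells and 0.274 CPM in scramble cells at day 4. The other gene that did not pass was IFITM2, in HMLE-TWIST1 cells at day 2 (0.03, adjusted p = 0.966). The median over all genes tested lay between -0.01 and 0.00 in these 4 comparisons, and 15.8 to 38.0% of all genes passed.

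Among the listed targets at day 4 in HMLE-TWIST1 cells, OAS1, an enzyme that senses double-stranded RNA, rose by 7.79 (SE 0.09, adjusted p = 8.8e-20) and MX1, an antiviral GTPase, by 7.36 (SE 0.09, adjusted p = 1.8e-19). In HMLE cells at day 4 IFI44L rose by 7.44 (SE 0.07, adjusted p = 1.1e-20) and IFI6, a mitochondrial antiviral protein, by 7.75 (SE 0.09, adjusted p = 8.1e-19). USP18, which removes ISG15 from proteins and blocks signalling at IFNAR2, rose by 5.79 and 4.82 in HMLE-TWIST1 and HMLE cells at day 4. Of 13 listed negative regulators, 6 rose and 2 fell in HMLE-TWIST1 cells at day 4, where 38.0% of all genes passed, and 3 rose and 2 fell in HMLE cells, where 26.1% did. PTPN11, a phosphatase, fell in both lines at day 4, by 0.56 and 0.37.

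Of 24 measured genes listed as IRF1 and antigen presentation targets, 22 rose at day 2 in HMLE-TWIST1 cells and 23 rose and 1 fell at day 4, with medians of 0.67 and 1.93. In HMLE cells 19 rose at day 2 and 24 at day 4, with medians of 0.85 and 2.29. The shares of all genes that passed were 15.8% and 38.0% in HMLE-TWIST1 cells and 28.7% and 26.1% in HMLE cells. GBP4, a guanylate-binding protein, rose by 6.57 in HMLE-TWIST1 cells at day 4 (SE 0.11, adjusted p = 7.1e-18), and B2M, the light chain of MHC class I, by 1.91 and 2.34 in HMLE-TWIST1 and HMLE cells. HLA-C rose by 2.07 and 2.29, with the limit that class I genes share near-identical sequence. WARS, a tRNA synthetase induced by interferon and named after its values were seen, was the gene that fell, at -0.59 (adjusted p = 0.004), in HMLE-TWIST1 cells at day 4.

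Of 12 measured genes listed as acting upstream of IRF3 and IRF7, 6 rose in each line at day 2. At day 4, 8 rose and 1 fell in each line. Of all genes tested, 15.8% passed in HMLE-TWIST1 and 28.7% in HMLE cells at day 2, and 38.0% and 26.1% at day 4. DDX58, the RNA sensor RIG-I, rose by 5.48 and 4.03 in HMLE-TWIST1 and HMLE cells at day 4, IFIH1, the sensor MDA5, by 4.93 and 3.37, and TLR3, an endosomal RNA sensor, by 2.25 and 2.33. MAVS, the mitochondrial adaptor of the RNA sensors and also named after its values were seen, was the gene that fell, at -0.45 and -0.34. Of the 5 other receptor chains and kinases measured, JAK2 (0.88) and IFNLR1, the interferon lambda receptor (1.22), rose with IFNGR2 (0.27) in HMLE-TWIST1 cells at day 4, and IFNGR1 (0.49) rose in HMLE cells. IRF2, a repressor that competes with IRF1, rose in all 4 knockdowns by 0.33 to 0.79.

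Of 24 interferon ligand symbols searched, 3 were matched. IFNL1, an interferon lambda, had 2 to 3 reads a library in HMLE-TWIST1 knockdown cells at day 4 and 10 to 12 in HMLE knockdown cells, and 0 reads in every scramble library of either line. IFNK, an interferon made by keratinocytes, had 13 to 21 reads in HMLE knockdown libraries at day 4 and 2 to 3 in scramble libraries. At day 2 it had 0 to 1 reads in HMLE knockdown libraries and 1 to 3 in scramble libraries. It had 0 reads in every HMLE-TWIST1 duplex library. IFNK met the read filter at day 4 only through the HMLE knockdown libraries, so no p-value is given for it. IFNE, an epithelial interferon, passed in none of the 4 knockdowns, and the other ligands were not analysed here.

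**Figure D3:**
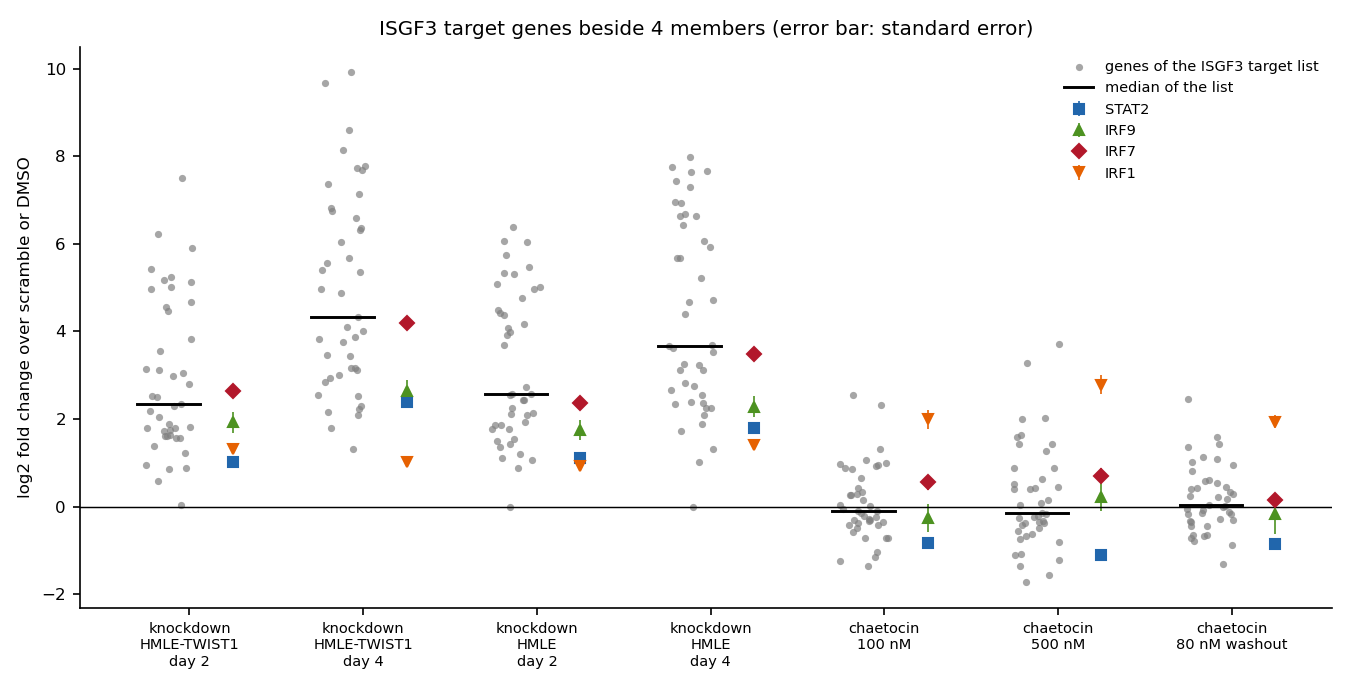
Grey points are the log2 fold changes of genes listed as ISGF3 targets (43 in knockdowns, 42 with chaetocin), black lines their medians, and coloured marks 4 members with their standard errors. In the knockdowns the medians of the list and the 4 members lie above 0. With chaetocin the list centres near 0 while IRF1 lies above it and STAT2 below.

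Chaetocin gave another pattern in HMLE-TWIST1 cells. IRF1 rose at every dose, STAT2 fell at every dose, IRF7 and IRF3 were higher by less than 1 on the log2 scale, and IRF9 did not pass at any dose. Members that passed numbered 3 of 9 at 100 nM, where 23.7% of all genes tested passed, 4 at 150 nM, where 34.3% did, 5 at 200 nM, where 40.0% did, and 6 at 500 nM, where 50.7% did. The 4 doses share the DMSO libraries, and the dose libraries form a separately processed set, so that batch and treatment cannot be told apart in these 4 comparisons.

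IRF1 had 2.26, 1.93 and 2.29 RPKM in DMSO cells at day 2. It had 9.54, 10.9 and 6.49 RPKM at 100 nM, 11.7, 15.7 and 9.52 RPKM at 150 nM, 12.96, 15.9 and 11.8 RPKM at 200 nM, and 12.5, 15.2 and 19.2 RPKM at 500 nM. The lowest treated library held more than the highest DMSO library, and neighbouring doses overlapped. The log2 fold changes over DMSO were 1.99, 2.45, 2.60 and 2.79 (SE 0.22 each), with adjusted p of 1.9e-05 at 100 nM and 1.4e-07 at 500 nM. At 500 nM the mean of 15.6 ± 3.36 RPKM in HMLE-TWIST1 cells was near that of HMLE DMSO cells at day 2, 13.6 ± 2.70 RPKM (SD, n = 3 each).

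STAT2 had 13.8, 13.3 and 12.1 RPKM in DMSO cells at day 2. It had 6.59, 7.48 and 8.51 RPKM at 100 nM, 5.45, 6.41 and 7.37 RPKM at 150 nM, 5.74, 6.63 and 7.55 RPKM at 200 nM, and 5.88, 6.79 and 6.13 RPKM at 500 nM. Every treated library lay below every DMSO library, and the doses overlapped each other. The log2 fold changes were -0.82, -1.06, -1.01 and -1.10 (SE 0.13 each), with adjusted p of 0.0004 at 100 nM and 5.5e-06 at 500 nM.

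TWIST1 averaged 269.6 RPKM with DMSO at day 2, and 220.9, 168.7, 152.3 and 115 RPKM at 100, 150, 200 and 500 nM. After washout of 80 nM it averaged 266.2 RPKM, against 212.2 RPKM with DMSO at day 4. In HMLE-TWIST1 knockdown cells it averaged 215.0 and 168.8 RPKM at days 2 and 4, against 298.9 and 234.1 RPKM in scramble cells. The part of these differences in the results was not tested.

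IRF7 had 2.13, 1.59 and 2.11 RPKM in DMSO cells at day 2, 3.01, 3.03 and 2.71 RPKM at 100 nM, 3.69, 4.22 and 2.84 RPKM at 150 nM, 3.38, 4.07 and 3.66 RPKM at 200 nM, and 3.16, 2.88 and 3.84 RPKM at 500 nM. The treated libraries lay above the DMSO libraries, with log2 fold changes of 0.56, 0.83, 0.89 and 0.71 (SE 0.17 each) from the lowest dose to the highest. The call at 100 nM (adjusted p = 0.025) was lost without replicate 2 of DMSO (adjusted p = 0.101) or replicate 1 (0.0674) or 2 (0.0722) of the dose. IRF3 had log2 fold changes of 0.50, 0.58, 0.68 and 0.84 (SE 0.19 each), and passed from 150 nM up. At 150 nM (adjusted p = 0.024) it was lost without replicate 1 of DMSO (0.0615), replicate 2 of DMSO (0.0767) or replicate 1 of the dose (0.123). At 100 nM (adjusted p = 0.0658) it passed without replicate 3 of the dose (0.0228), with the replicate block (0.0212), over all 51 libraries (0.0032) and on the deposited log2 RPKM (0.0288).

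JAK1 had 32.9, 36.3 and 38.8 RPKM at 500 nM, against 45.6, 45.1 and 48.9 RPKM in DMSO cells at day 2, a fall of 0.41 on the log2 scale (SE 0.14, adjusted p = 0.021). That call was lost without replicate 3 of DMSO (adjusted p = 0.0665), without replicate 1 of the dose (0.0803), and on the deposited log2 RPKM (-0.31, adjusted p = 0.0731). At 200 nM it fell by 0.37 (SE 0.14, adjusted p = 0.0403), which did not hold without any library but replicate 3 of the dose (adjusted p 0.0657 to 0.192), under median-of-ratios scaling (0.0502) and on the deposited log2 RPKM (0.153). At 100 nM (-0.32, adjusted p = 0.108) and 150 nM (-0.36, adjusted p = 0.055) it passed without replicate 3 of the dose (0.0388 and 0.0168), with the replicate block (0.0267 and 0.0104) and over all 51 libraries (0.0101 and 0.0027).

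The other kinase and the receptor chains moved less. TYK2 fell by 0.36 at 500 nM (SE 0.10, adjusted p = 0.0086), with 5.39, 5.88 and 5.91 RPKM against 7.43, 7.05 and 7.01 RPKM in DMSO cells. IFNAR1 and IFNAR2 passed at no dose, with log2 fold changes of -0.24 to -0.17 and of -0.07 to 0.29. IFNAR1 passed at 200 nM without replicate 2 of that dose (-0.33, adjusted p = 0.0403) and at 100 nM over all 51 libraries (-0.22, adjusted p = 0.0358). IFNAR2 at 150 nM (adjusted p = 0.0651) passed under median-of-ratios scaling (0.0475), on the deposited log2 RPKM (0.0121), with the replicate block (0.0352) and over all 51 libraries (0.0148).

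Between 500 and 100 nM, which lie in the same processing set, IRF1 alone of the 9 members passed (log2 fold change 0.79, SE 0.22, adjusted p = 0.02), where 16.9% of all genes tested passed. It did not pass without replicate 3 of 100 nM (0.59, adjusted p = 0.11) or without replicate 2 (0.81, adjusted p = 0.0711) or 3 (0.63, adjusted p = 0.0877) of 500 nM. Same-numbered libraries deviated together across the doses, as the lines for JAK1 and STAT2 show, and with the replicate block in the dose libraries alone 4 members passed. These were IRF1 (0.79, adjusted p = 0.0159), IRF3 (0.34, adjusted p = 0.0396), TYK2 (-0.30, adjusted p = 0.0222) and STAT2 (-0.28, adjusted p = 0.0304). IRF3 also passed without replicate 1 of 100 nM (0.58, adjusted p = 0.0295).

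**Figure D4:**
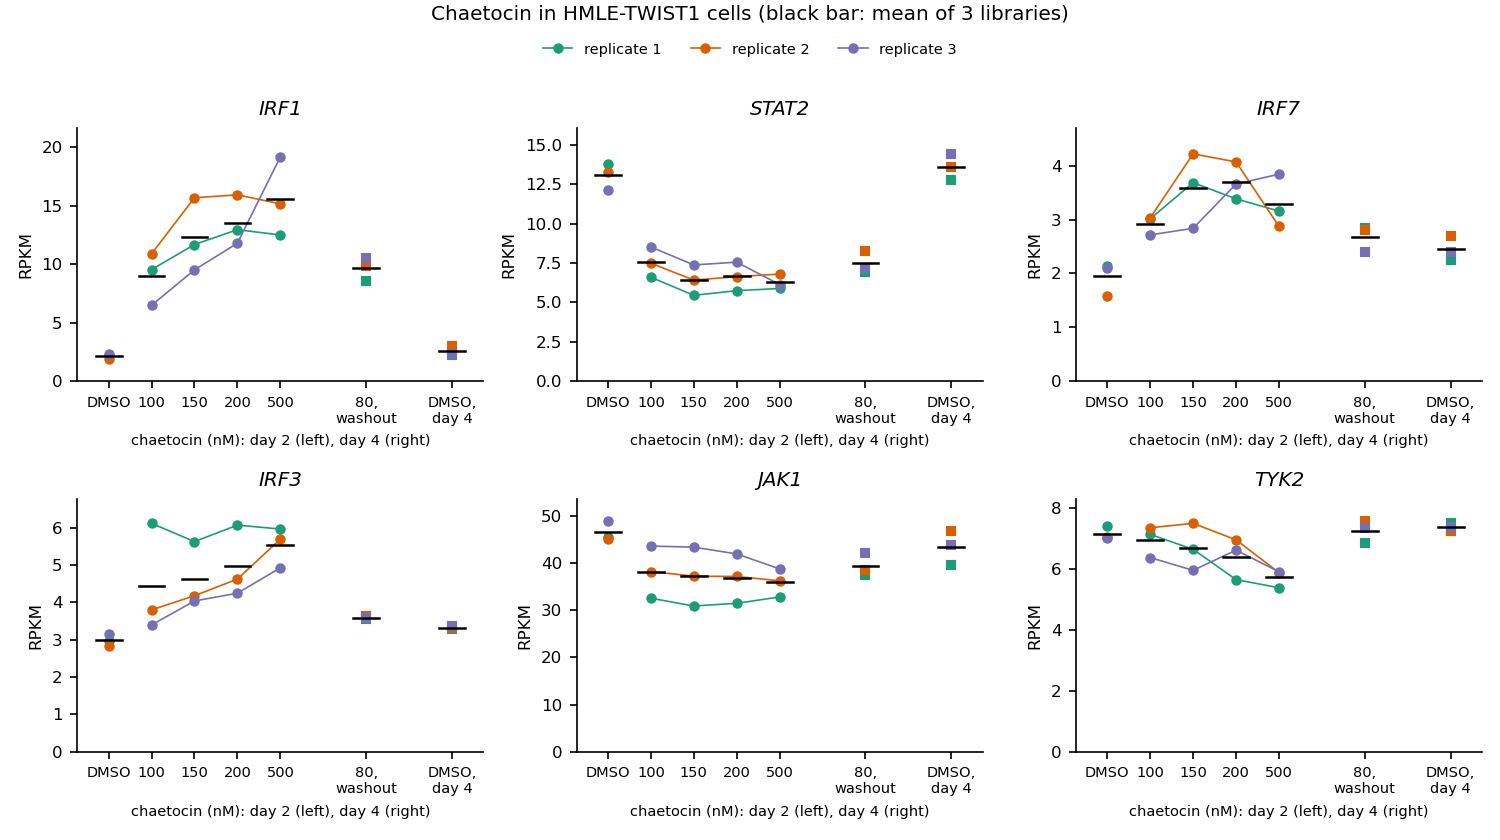
Points show RPKM (linear axis) in each HMLE-TWIST1 library at day 2 with DMSO and 4 doses of chaetocin, and at day 4 after washout of 80 nM and with DMSO, lines join same-numbered replicates across doses, and black bars are group means. IRF1 is higher and STAT2 lower in all treated libraries than in DMSO libraries, at both times.

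At 80 nM with washout, compared with DMSO libraries of the same processing set, 3 of 9 members passed, where 36.6% of all genes tested passed. IRF1 had 8.57, 9.82 and 10.6 RPKM after washout, against 2.25, 3.05 and 2.36 RPKM with DMSO. STAT2 had 6.95, 8.26 and 7.21 RPKM, against 12.8, 13.6 and 14.4 RPKM. The groups did not overlap for either gene, with log2 fold changes of 1.93 (SE 0.15, adjusted p = 2.5e-06) for IRF1 and -0.85 (SE 0.10, adjusted p = 1.5e-05) for STAT2. IFNAR1 was lower at -0.27 (SE 0.08, adjusted p = 0.02), which did not hold without replicate 3 of washout (adjusted p = 0.0975) or replicate 2 of DMSO (0.0614). JAK1 (-0.13, adjusted p = 0.182) passed without replicate 1 of DMSO (-0.20, adjusted p = 0.0465). IRF7 had 0.14 (adjusted p = 0.467), IRF3 0.13 (adjusted p = 0.34) and IRF9 -0.17 (adjusted p = 0.81).

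The ISGF3 target list was mixed with chaetocin. Its counts stand beside 50.7% of all genes that passed at 500 nM, 23.7% at 100 nM and 36.6% after washout, and at 500 nM the listed genes passed about as often as all genes. Of 42 genes measured, 12 rose and 9 fell at 500 nM (median -0.15, against 0.02 for all genes), 9 rose and 3 fell at 100 nM (median -0.10, against 0.01), and 14 rose and 7 fell after washout (median 0.03, against 0.01). TRIM25, a ubiquitin ligase for RIG-I, rose at 500 nM (1.26, SE 0.11, adjusted p = 3.0e-07) and after washout (0.95, SE 0.10, adjusted p = 1.1e-05), and HERC5, a ligase for ISG15, rose by 3.72 and 2.46. MX1 rose at 500 nM (2.03, SE 0.24, adjusted p = 4.7e-06) and ISG15, a ubiquitin-like protein, after washout (1.60, SE 0.20, adjusted p = 3.1e-05). Of 23 IRF1 and antigen presentation targets 2 rose and 10 fell at 500 nM, and 4 rose and 8 fell after washout. The class I gene HLA-C fell by 0.83 at 500 nM and by 0.92 after washout.

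Other regulators are given at 500 nM, where 50.7% of all genes passed, and after washout. Of 6 other STATs 1 rose and 2 fell at 500 nM, and of 13 negative regulators 3 rose and 4 fell. STAT4 rose at 500 nM (2.39, SE 0.39, adjusted p = 9.3e-05) and after washout (1.64, SE 0.19, adjusted p = 1.8e-05), and STAT3 fell by 0.77 and 0.55. PIAS3 and PIAS1, inhibitors of STAT proteins, fell at 500 nM by 1.98 (SE 0.14, adjusted p = 6.4e-08) and 1.16 (SE 0.10, adjusted p = 3.9e-07). SOCS1, a feedback inhibitor of JAK kinases, rose by 1.75 (SE 0.26, adjusted p = 4.5e-05). Of 4 other IRFs 3 rose at 500 nM, with the log2 fold change of IRF4, a factor of lymphocytes, at 3.08. Only 3 of the 4 were tested after washout. IRF4 may have met the read filter at day 2 only through the dose libraries, so no p-value is given for it. In the list upstream of IRF3 and IRF7, 5 of 12 rose and 4 fell at 500 nM, DDX58 by 1.64 (SE 0.23, adjusted p = 2.4e-05) and TLR3 at -1.74 (SE 0.21, adjusted p = 6.6e-06).

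In control cells, IRF1 and IRF7 were lower in HMLE-TWIST1 than in HMLE cells in all 4 comparisons, and the receptor chains and kinases differed by less than 0.75 on the log2 scale. Members that passed numbered 5 of 9 with DMSO at day 2, where 47.4% of all genes tested passed, and 5 with DMSO at day 4, where 66.9% did. With scramble 9 passed at day 2, where 69.0% did, and 7 at day 4, where 74.4% did. The lines differ in more than these genes, as the marker sums show, and the part of that in these differences was not tested.

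IRF1 with DMSO at day 2 had 2.26, 1.93 and 2.29 RPKM in HMLE-TWIST1 cells, against 12.02, 12.1 and 16.7 RPKM in HMLE cells. At day 4 it had 2.25, 3.05 and 2.36 RPKM in HMLE-TWIST1 cells, against 9.46, 12.3 and 14.04 RPKM in HMLE cells. The groups lay apart, with log2 fold changes of -2.65 (SE 0.22, adjusted p = 1.9e-08) and -2.24 (SE 0.15, adjusted p = 4.7e-08). In the scramble libraries, given above, the log2 fold changes were -1.43 (SE 0.11, adjusted p = 1.6e-08) at day 2 and -0.52 (SE 0.06, adjusted p = 5.8e-07) at day 4, and the difference from the DMSO cells was not tested.

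IRF7 had log2 fold changes of -0.97 and -1.03 with DMSO and -1.26 and -0.98 with scramble at days 2 and 4 (SE 0.11 to 0.17), with no overlap in any of them. IRF3 was lower by -0.84 (SE 0.19, adjusted p = 0.0012) and -0.50 (SE 0.10, adjusted p = 0.00046) with DMSO and by -0.46 (SE 0.10, adjusted p = 0.00042) with scramble at day 2, and had -0.19 at day 4 (adjusted p = 0.131). That value passed without replicate 1 of HMLE scramble (-0.28, adjusted p = 0.0408). IRF9 was lower with scramble, at -0.78 (SE 0.24, adjusted p = 0.0068) and -0.76 (SE 0.24, adjusted p = 0.0078), and the second was lost without replicate 1 of HMLE-TWIST1 (-0.48, adjusted p = 0.0505). With DMSO IRF9 had -0.22 (adjusted p = 0.623) and -0.93 (adjusted p = 0.0818), and the value at day 4 passed without replicate 3 of HMLE (-1.34, adjusted p = 0.0203) and over all 51 libraries (-0.91, adjusted p = 0.0168).

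STAT2 was higher in HMLE-TWIST1 cells with DMSO, by 0.56 (SE 0.13, adjusted p = 0.0018) at day 2 and 0.35 (SE 0.10, adjusted p = 0.0053) at day 4. With scramble it was higher by 0.20 at day 2 (SE 0.07, adjusted p = 0.024) and lower at day 4, at -0.26 (SE 0.08, adjusted p = 0.0053). The day 2 call was lost without replicate 2 of HMLE or any 1 of the HMLE-TWIST1 replicates (adjusted p 0.053 to 0.2), under median-of-ratios scaling (0.15, adjusted p = 0.0876), without the filter (0.15, adjusted p = 0.0905) and over all 51 libraries (0.15, adjusted p = 0.208). TYK2 was higher with DMSO at day 4 (0.30, SE 0.08, adjusted p = 0.0029) and with scramble (0.66 and 0.74 at days 2 and 4). With DMSO at day 2 TYK2 had 0.25 (SE 0.10, adjusted p = 0.0582) with no overlap of the groups, and passed with the replicate block (0.0443) and over all 51 libraries (0.0273). IFNAR2 was higher with scramble, by 0.62 (SE 0.09, adjusted p = 1.2e-05) and 0.43 (SE 0.10, adjusted p = 0.001), and had -0.11 and 0.03 with DMSO (adjusted p = 0.483 and 0.848), a difference that was not tested. IFNAR1 passed with scramble at day 2 (0.40, SE 0.06, adjusted p = 1.2e-05).

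JAK1 had no steady direction between the lines. With scramble at day 4 it was lower in HMLE-TWIST1 cells, at 46.7, 45.5 and 47.2 RPKM against 66.4, 68.2 and 69.3 RPKM in HMLE cells (-0.55, SE 0.05, adjusted p = 4.9e-09). With DMSO at day 2 it was higher by 0.37 (SE 0.14, adjusted p = 0.0383), which did not hold when any 1 of the 6 libraries was left out (adjusted p 0.0682 to 0.135) and on the deposited log2 RPKM (adjusted p = 0.0515). With scramble at day 2 it was higher by 0.14 (SE 0.05, adjusted p = 0.023) with overlapping libraries, which did not hold without replicate 1 or 2 of either line (adjusted p 0.123 to 0.206), under median-of-ratios scaling (0.09, adjusted p = 0.135) without the filter (0.09, adjusted p = 0.147) and over all 51 libraries (0.09, adjusted p = 0.395). With DMSO at day 4 its value of -0.16 (adjusted p = 0.0569) passed once replicate 2 of HMLE-TWIST1 was left out (-0.21, adjusted p = 0.0216) and with the replicate block (-0.16, adjusted p = 0.0256).

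**Figure D5:**
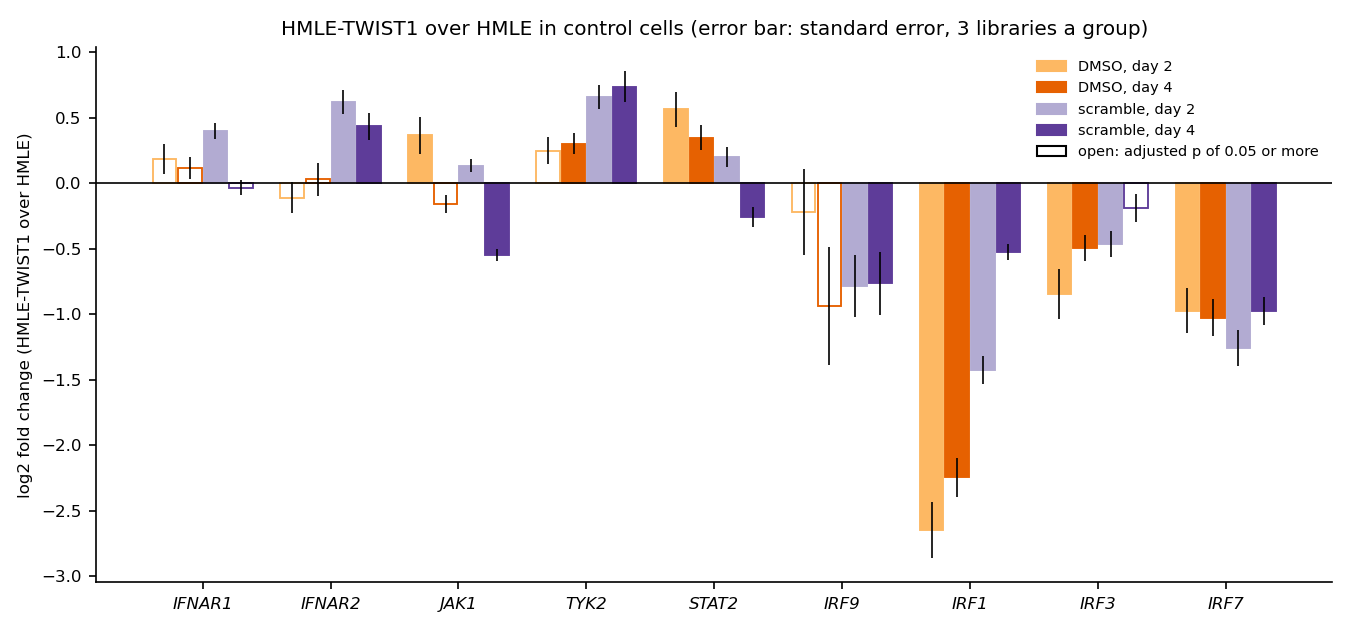
Bars show the log2 fold change of HMLE-TWIST1 over HMLE in 4 pairs of control groups for 9 genes, with the standard error from limma (3 libraries a group), and open bars did not pass. IRF1 and IRF7 have filled bars below 0 in all 4 pairs, and the bars of IRF1 range from -2.65 to -0.52.

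Related lists were also compared between the lines. With DMSO at day 2, where 47.4% of all genes passed, 4 of 42 ISGF3 targets were higher and 24 lower (median -0.90, against 0.01 for all genes), and 1 of 23 IRF1 and antigen presentation targets was higher and 18 lower (median -1.23). With scramble at day 4, where 74.4% of all genes passed, 13 of 43 and 10 of 24 were higher and 26 and 11 lower, with medians of -0.44 and -0.11 against 0.03. IRF5 was lower at -4.28 (SE 0.39, adjusted p = 5.9e-08) with DMSO at day 2. IFNLR1 was lower at -3.19 (SE 0.34, adjusted p = 4.2e-07) and the phosphatase PTPN6 at -5.65 (SE 0.53, adjusted p = 7.9e-08). The membrane protein IFITM2, close in sequence to IFITM3, was higher by 4.204 (SE 0.35, adjusted p = 2.7e-08).

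Over the 17 group means of log2 CPM, which share libraries and scaling, the members fell into groups of like pattern (Pearson r, given as a description). IRF9 and IRF7 were most alike (r = 0.973), STAT2 was nearest to IRF9 (r = 0.878), IRF1 to IRF3 (r = 0.807) and TYK2 to IFNAR2 (r = 0.738). JAK1 had no member above 0.254. Over 11848 genes with an average log2 CPM of at least 2, the nearest genes were TRIM21 (0.991) and OAS2 (0.985) for IRF7, IFI44 (0.986) and DDX60L (0.982) for IRF9, ANKIB1 (0.966) and UBA7 (0.960) for STAT2, and PSME2P2 (0.944) and IQCB1 (0.931) for IRF1. For the others they were C21orf59 and SNAPC4 for IRF3, NRBF2 and IL13RA1 for JAK1, PPAP2B and HNRNPH1 for TYK2, ATP6AP2 and GDF11 for IFNAR1, and RP11-1094M14.11 and DDX20 for IFNAR2, with r of 0.794 to 0.943.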

How the data were processed

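RNA was sequenced from 51 libraries, prepared by a stranded total RNA protocol with ribosomal RNA depleted, per the labels' protocols. STAR, HTSeq and the hg19 (GRCh37) build are named in the submitters' processing notes, with no versions, and the mode of counting is not given in the sources used here. The authors deposited log2 RPKM values, in 3 separately processed sets of 15, 24 and 12 libraries. Steps between the low values gave back whole reads for 100% of genes (within 0.001 of a read). A raw count table was also deposited, but the names of its 81 columns match no sample label, and it was not used.

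The reads were scaled by trimmed means of log ratios (trims 0.3 and 0.05) and turned into log2 CPM with a prior count of 2. Genes with 10 reads in at least 3 libraries and 15 in all were tested with limma 3.58.1 (trend and robust, statmod 1.5.0, R 4.3.3), two-sided, with Benjamini-Hochberg adjustment over all genes tested and a threshold of 0.05. The scripts were tested on simulated data. Libraries held 7897060 to 15662385 reads, which limits the precision of IRF9 most. No 2 replicates agreed within sampling noise. Same-numbered libraries deviated together in the dose groups, where all 6 pairs of groups had correlations of 0.182 to 0.675. In 52 other comparisons of groups, some of them repeated in a second fit, the correlations ranged from -0.204 to 0.237. In none of those were the correlations of all same-numbered libraries over the limit of 0.1.

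The genes and the related lists were chosen with earlier results of these data known. Of each list, up to 4 genes with the smallest adjusted p in a comparison are named, and for each member the nearest genes by correlation. Alternatives were another scaling, no filter, a prior count of 0.5, precision weights, the deposited log2 RPKM, the replicate block, a fit of all 51 libraries, and leaving out each library. The tests of day 4 against day 2 effects and the fits of the dose libraries alone were chosen after seeing the data. Some genes of these lists are not reported here.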

Additional observations from a re-analysis of the deposited data

Results flagged for a closer look

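The knockdown effect differed between conditions in a test of the difference itself for 10 results, all from limma with adjustment over all genes tested and 3 libraries a group. Between the lines at day 4, the effect in HMLE-TWIST1 cells minus that in HMLE cells was 0.60 for STAT2 (adjusted p = 0.00058), -0.39 for IRF1 (adjusted p = 0.0044) and 0.71 for IRF7 (adjusted p = 0.0028). Between the days in HMLE-TWIST1 cells, the effect at day 4 minus that at day 2 was 1.396 for STAT2 (adjusted p = 1.2e-10), 1.58 for IRF7 (adjusted p = 2.4e-07) and -0.37 for JAK1 (adjusted p = 9.0e-05). Between the days in HMLE cells it was 0.67 for STAT2 (adjusted p = 6.4e-05), 0.47 for IRF1 (adjusted p = 0.012), 0.57 for IRF3 (adjusted p = 0.0057) and 1.12 for IRF7 (adjusted p = 8.0e-05). Over all 51 libraries 3 of these did not pass, IRF1 between the lines (adjusted p = 0.324), IRF1 between the days in HMLE cells (0.196) and JAK1 between the days in HMLE-TWIST1 cells (0.0536).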

How the results depend on the processing

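Of 1278 values of the 9 genes under the other settings, 1231 kept their side of the threshold (5 of them, not called, changed sign), 19 lost and 28 gained a call, and 0 called values changed sign. Of 1296 values with 1 library left out, 1225 kept it (33 of them, not called, changed sign), 42 lost and 29 gained a call, and 0 called values changed sign. The replicate block changed 8 of 180 calls (1 lost, 7 gained). By the limit given above, same-numbered libraries deviated together only within the dose groups. Low read numbers limit IRF9.

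Members called at 100 nM numbered 3, against 5 with the replicate block, 6 over all 51 libraries and 2 to 5 with 1 library left out. Between 500 and 100 nM, 1 member was called, against 2 on the deposited log2 RPKM, 2 with the replicate block, 2 over all 51 libraries, 4 in the dose libraries alone with the replicate block, and 0 to 2 with 1 library left out. The genes called there numbered 3186, against 5124 over all 51 libraries, 6140 and 1708 in the dose libraries alone with and without the replicate block, and 917 to 3435 with 1 library left out. For the knockdown effect between lines at day 2, 0 members were called, against 1 each under median-of-ratios scaling, no filter and precision weights, and 0 to 2 with 1 library left out. For HMLE scramble between days, 3 members were called, against 1 over all 51 libraries and 2 to 4 with 1 library left out.

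Over all 51 libraries the genes called fell to 3332, against 5141, for knockdown in HMLE cells at day 2 (3859 to 5392 with 1 library left out), and to 1245, against 2825, in HMLE-TWIST1 cells at day 2 (1971 to 2672). They fell to 742, against 2179, for the effect between lines at day 2 (1463 to 2640) and to 2411, against 4111, at day 4 (3335 to 4029). They fell to 3560, against 5446, for HMLE-TWIST1 scramble between days (4472 to 4882). For the effect between days they fell to 1331, against 3293, in HMLE cells (2521 to 3788) and to 2073, against 3753, in HMLE-TWIST1 cells (3221 to 3609). The cause was not tested.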
